A study of Mus musculus with 4 samples.

Results

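Haemoglobin is carried by red blood cells as a tetramer of α-like and β-like globin chains, each holding a haem group. In the mouse embryo the first red cells, which form in the yolk sac and circulate with a nucleus, carry the embryonic chains encoded by *Hba-x* (ζ), *Hbb-y* (εy) and *Hbb-bh1* (βh1). Red cells made later in the fetal liver carry the adult chains encoded by *Hba-a1*, *Hba-a2*, *Hbb-bs* and *Hbb-bt*, and at midgestation both kinds are in the blood. *Alas2* encodes the red cell form of the first enzyme of haem synthesis, and *Ahsp* encodes a chaperone of free α-globin. These 9 genes were followed here in RNA of sorted brain cells. The list was fixed by name, and it was chosen with earlier results of these data known. Of the 9 names, 8 had values among the 56883 genes, 7 reached the level needed for a test, and *Ahsp* was not analysed here.

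At E14.5, tdTomato-positive cells were isolated by FACS from the basal telencephalon, the ventral forebrain in which cortical interneurons are born. Control embryos were *Sst-Cre/tdTomato* and knockout (KO) embryos were *Sst-Cre/tdTomato/Dnmt1 loxP2*, so all libraries carried the Cre driven from the somatostatin gene and the tdTomato reporter, and only the KO also carried the floxed *Dnmt1* alleles. There were 2 libraries per genotype, which the study's authors processed separately, each from cells pooled over several embryos. The p-values below thus concern libraries and not single embryos. Those from limma draw each gene's variance towards a trend with level over all genes, and so do not measure its own spread alone. Without that trend limma called 0 of 14323 genes. Whether the 2 libraries of a genotype share embryos is not stated in the sources used here. Recovered read totals ranged from 6970247 to 8376711 per library. *Dnmt1*, the targeted DNA methyltransferase, had normalized counts of 2238 and 2341 in the control and 2164 and 2210 in the *Dnmt1* KO libraries (log2 fold change −0.07, SE 0.05, limma adjusted p = 0.461). Reads were counted over all exons of *Dnmt1* together, so this value checks nothing about the floxed exons. Markers of the labelled cell type were present in every library, with *Sst* between 5580 and 8303 and *Lhx6*, a transcription factor of interneurons from this region, between 2679 and 4674 normalized counts.

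The globin family holds 1 embryonic α-like, 2 embryonic β-like and 2 near-identical adult genes of each kind, and how far reads can be told apart follows from the sequences. The first 60 coding bases of the β-like genes are shown with bases that differ from *Hbb-bt* in capitals (reference transcripts of GENCODE on GRCm39).
Hbb-bt: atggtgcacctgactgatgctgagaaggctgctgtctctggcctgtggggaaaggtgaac
Hbb-bs: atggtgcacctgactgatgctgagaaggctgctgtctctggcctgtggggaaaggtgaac
Hbb-bh1: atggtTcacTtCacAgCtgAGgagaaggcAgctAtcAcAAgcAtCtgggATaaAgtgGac
Hbb-y: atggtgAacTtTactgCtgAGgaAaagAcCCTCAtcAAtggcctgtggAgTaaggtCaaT
The same stretch of the α-like genes has bases that differ from *Hba-a1* in capitals.
Hba-a1: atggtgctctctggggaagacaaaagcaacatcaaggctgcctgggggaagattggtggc
Hba-a2: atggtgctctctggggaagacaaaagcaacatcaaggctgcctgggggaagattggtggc
Hba-x: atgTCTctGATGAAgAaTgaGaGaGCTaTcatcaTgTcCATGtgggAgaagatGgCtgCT
Both adult pairs were identical over this stretch, and over the whole coding sequence *Hbb-bs* and *Hbb-bt* differed at 1 of 444 bases and *Hba-a1* and *Hba-a2* at 1 of 429. The embryonic genes were far from the adult ones, with 74.1% of coding bases shared by *Hbb-y* and *Hbb-bt*, 73.9% by *Hbb-bh1* and *Hbb-bt*, and 62.0% by *Hba-x* and *Hba-a1*. Of all 75-base stretches of the transcripts, 86.9% of those of *Hba-a2* also occurred in *Hba-a1*, and 60.3% of those of *Hbb-bs* also occurred in *Hbb-bt*. None of *Hbb-y*, *Hbb-bh1* or *Hba-x* occurred in another globin. The split of reads within an adult pair is therefore uncertain, while the division between embryonic and adult genes does not rest on shared stretches of this length.

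All globin and erythroid genes with values were lower in the *Dnmt1* KO than in the control libraries, and the embryonic globins were lower by a larger factor than the adult ones. The summed normalized count of the 8 genes was 2589 and 2399 in the control and 576 and 588 in the *Dnmt1* KO libraries, a ratio of 4.29. As a share of all reads, these genes gave 345 (95% Wilson interval 333 to 358) and 323 (310 to 336) reads per 1000000 in the control and 75.4 (69.5 to 81.8) and 77.2 (70.9 to 84.0) in the KO; these intervals cover counting error only. The 3 embryonic globins summed to 476 and 480 against 45.4 and 47.0, a ratio of 10.4, and the 4 adult globins to 2067 and 1866 against 521 and 534, a ratio of 3.73. In bulk samples, fewer red cells and less globin RNA per cell cannot be told apart.

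**Figure D1:**
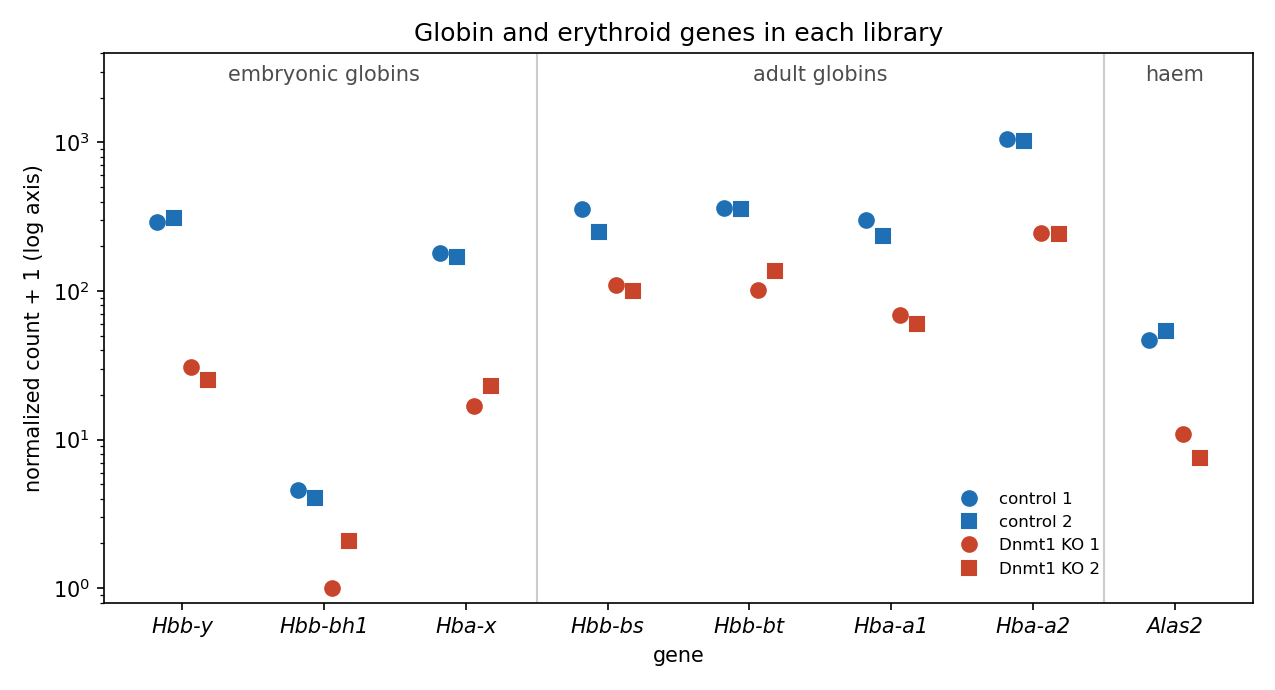
Normalized count plus 1 (log axis) of each globin and erythroid gene in the 2 control (blue) and 2 *Dnmt1* KO (red) libraries; circles are replicate 1 and squares replicate 2. Both KO libraries lie below both control libraries for each gene, and the gap is wider for *Hbb-y* and *Hba-x* than for the adult globins.

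Of the 7 tested genes, 7 were called lower in the *Dnmt1* KO (limma on log2(normalized count + 1), Benjamini-Hochberg adjusted p below 0.05). Over all 14323 tested genes, 17.3% were called in either direction and 8.99% were called lower, and the median log2 fold change was −0.0033. For all 8 genes both KO libraries lay below both control libraries, which was so for 29% of all tested genes. Ranked by the size of the log2 fall among the 1287 genes called lower, *Hbb-y* stood at place 5, *Hba-x* at 7, *Alas2* at 17, *Hba-a2* at 38, *Hba-a1* at 41, *Hbb-bt* at 105 and *Hbb-bs* at 128. The 4 genes ahead of *Hbb-y* (*Gm6430*, *Snord3b1*, *Gm6565* and *Gm12537*) had mean normalized counts of 10.2 to 29.5 over the 4 libraries, against 163 for *Hbb-y*.

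The embryonic β-like gene *Hbb-y* (ENSMUSG00000052187.5, GRCm39 chr7:103500956-103502423, minus strand) had normalized counts of 293 and 307 in the control and 29.6 and 24.0 in the *Dnmt1* KO libraries. The 2 genotypes were an order of magnitude apart, with replicates close together. Its log2 fold change was −3.44 (SE 0.19, adjusted p = 2.17e-08), a ratio of mean normalized counts of 11.2. The embryonic α-like gene *Hba-x* (ENSMUSG00000055609.9, chr11:32226400-32228116, plus strand), which pairs with the embryonic β-like chains in the first haemoglobins, had 180 and 169 in the control and 15.8 and 21.9 in the KO. It too had no overlap between genotypes, and fell by 3.16 on the log2 scale (SE 0.24, adjusted p = 4.58e-07), a ratio of 9.28.

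The second embryonic β-like gene, *Hbb-bh1* (ENSMUSG00000052217.7, chr7:103490844-103492371, minus strand), is the earliest β-like gene of yolk sac red cells and was nearly absent. It had 4 and 3 reads in the control and 0 and 1 in the KO libraries, a mean normalized count of 1.93, which was under the limit for testing. With the limit lowered to 1, its log2 fold change was −1.58 (SE 0.86, limma adjusted p = 0.281), and a difference was not detectable at this depth.

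*Hba-a2*, an adult α gene, was the most abundant of the set, while *Hba-a1* had lower mean counts than *Hbb-bt* and *Hbb-bs*. *Hba-a2* (ENSMUSG00000069917.8, chr11:32246168-32247320, plus strand) had normalized counts of 1052 and 1026 in the control and 244 and 241 in the *Dnmt1* KO libraries. Replicates differed little and the log2 fold change was −2.09 (SE 0.09, adjusted p = 1.83e-09), a ratio of 4.28. *Hba-a1* (ENSMUSG00000069919.8, chr11:32233186-32234504, plus strand) had 298 and 235 against 68.1 and 59.0, with a log2 fold change of −2.04 (SE 0.17, adjusted p = 1.01e-06), a ratio of 4.19. Since the reads of this pair cannot be parted with certainty, both were also summed into 1 gene, which had a log2 fold change of −2.09 (SE 0.08, adjusted p = 9.07e-10).

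The adult β genes fell by the smallest factor. *Hbb-bt* (ENSMUSG00000073940.4, chr7:103461727-103465047, minus strand) had normalized counts of 361 and 357 in the control and 101 and 135 in the *Dnmt1* KO libraries. Its spread was wider in the KO than in the control, but the genotypes did not overlap, and the log2 fold change was −1.61 (SE 0.15, adjusted p = 2.67e-06), a ratio of 3.04. *Hbb-bs* (ENSMUSG00000052305.7, chr7:103475730-103482989, minus strand) had 356 and 248 against 108 and 98.3, a log2 fold change of −1.52 (SE 0.17, adjusted p = 1.47e-05) and a ratio of 2.92. Here control replicate 1 was well above control replicate 2. Summed, the pair had a log2 fold change of −1.57 (SE 0.11, adjusted p = 1.58e-07).

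*Alas2* (ENSMUSG00000025270.14, chrX:149330371-149353634, plus strand), the only tested gene of the set that encodes no globin, had normalized counts of 45.6 and 53.1 in the control and 9.86 and 6.56 in the *Dnmt1* KO libraries. These were 51 and 52 against 10 and 6 reads, so that counting error was larger than for the globins, and the log2 fold change was −2.47 (SE 0.39, adjusted p = 0.000416), a ratio of 6.01. Its value lay between those of the embryonic and the adult globins. Over the other settings and with 1 library left out it ranged from −2.73 to −1.71. That range includes the −2.09 of *Hba-a2* and the −2.04 of *Hba-a1*, and the difference was not tested.

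**Figure D2:**
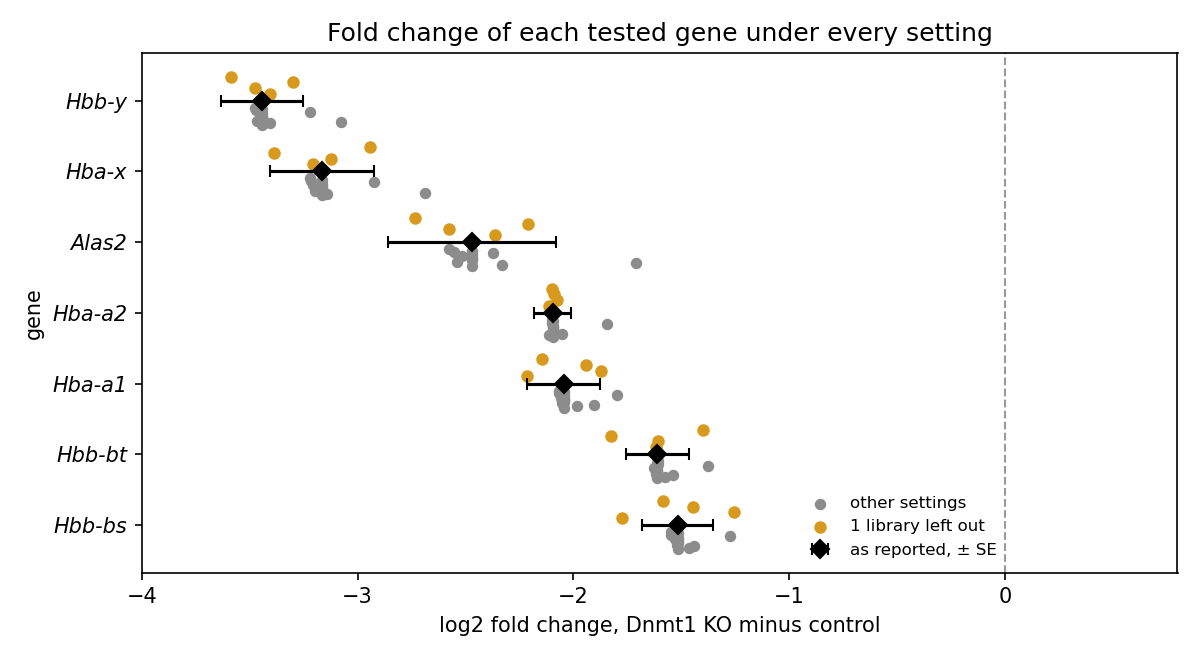
Log2 fold change (*Dnmt1* KO minus control) of the 7 tested genes as reported (black, bar ± SE from limma), with 1 library left out (orange) and under the other settings (grey). All values stay below 0, from −3.59 for *Hbb-y* to −1.26 for *Hbb-bs*, and *Hbb-y* and *Hba-x* stay below every adult globin.

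Per kilobase of transcript, *Hba-a2* had the highest level in both genotypes, with mean normalized counts per kilobase of 1606 in the control and 375 in the *Dnmt1* KO. In the control it was followed by *Hbb-bt* at 510, *Hbb-y* at 474, *Hbb-bs* at 455, *Hba-a1* at 361, *Hba-x* at 218, *Alas2* at 24.2 and *Hbb-bh1* at 5.42. The libraries of *Hbb-y* and *Hbb-bs*, and those of *Hbb-bs* and *Hba-a1*, overlapped, so these neighbours were not separated beyond their spread. In the KO the order below *Hba-a2* was *Hbb-bt* at 168, *Hbb-bs* at 156, *Hba-a1* at 86.1, *Hbb-y* at 42.4, *Hba-x* at 23.5, *Alas2* at 4.03 and *Hbb-bh1* at 0.891, with overlap between *Hbb-bt* and *Hbb-bs*. *Hbb-y* thus stood above *Hba-a1* in the control and below it in the KO, without overlap between these 2 genes in either genotype. Levels of single adult genes rest on the uncertain split of reads within each pair, and so does this crossing. Of the 75-base stretches of *Hba-a1*, 75% also occurred in *Hba-a2*.

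The balance of embryonic to adult globin can be read within each library, where it does not depend on the size factor. Of all β-like globin reads, the embryonic genes gave 29.2% (331 of 1132 reads, 95% Wilson interval 26.7 to 32.0) and 33.9% (304 of 897, 30.9 to 37.1) in the control libraries. In the *Dnmt1* KO libraries they gave 12.4% (30 of 242, 8.82 to 17.1) and 9.70% (23 of 237, 6.55 to 14.1). The β-like share was thus lower in both KO libraries than in both controls, with no contact between the counting intervals. Of all α-like reads, *Hba-x* gave 11.8% (201 of 1710, 10.3 to 13.4) and 11.8% (166 of 1401, 10.3 to 13.6) in the control libraries. It gave 4.82% (16 of 332, 2.99 to 7.68) and 6.78% (20 of 295, 4.43 to 10.2) in the KO libraries. The α-like share was also lower in both KO libraries, though the upper bound of KO replicate 2 nearly reached the lower bounds of the controls.

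**Figure D3:**
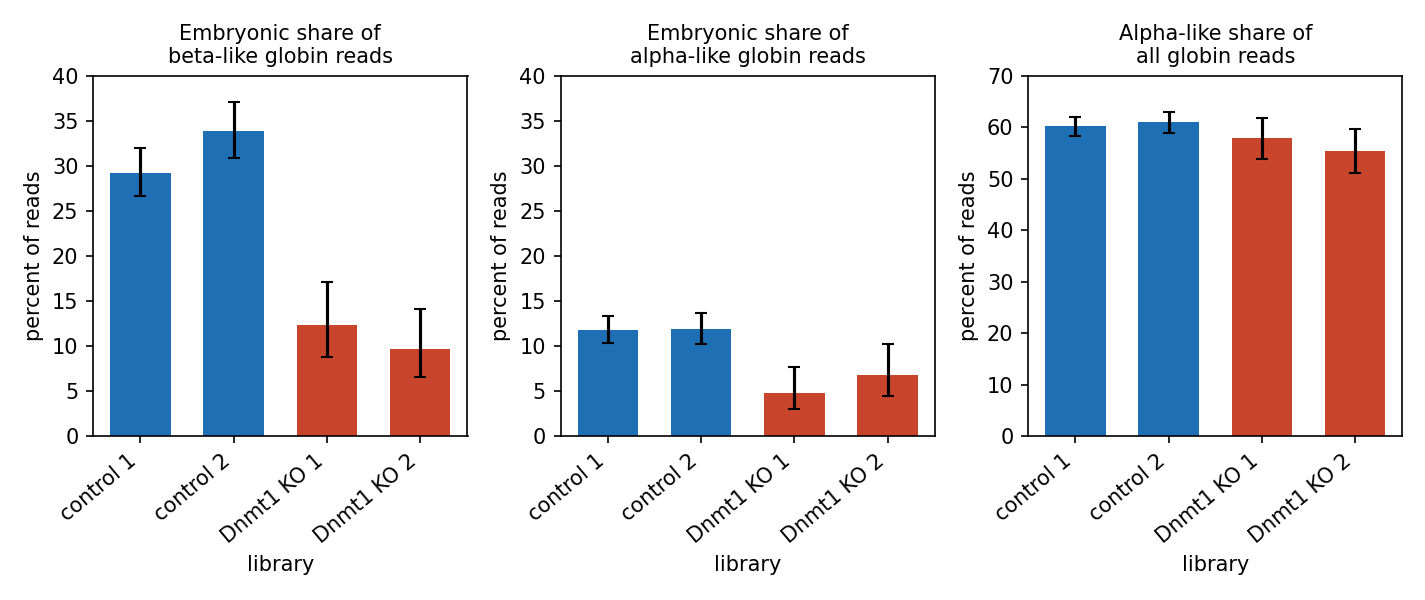
Percent of reads in each library that came from embryonic genes among β-like globins (left) and α-like globins (middle), and from α-like genes among all globins (right); bars are single libraries and error bars 95% Wilson intervals. The embryonic share lies at 29.2% and 33.9% against 12.4% and 9.70% for β-like globins, and at 11.8% in both controls against 4.82% and 6.78% for α-like globins.

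On the log2 scale, the ratio of embryonic to adult β-like globin was −1.27 and −0.96 in the control and −2.82 and −3.22 in the *Dnmt1* KO libraries, a difference of −1.90 or 3.73-fold. The corresponding α-like ratio was −2.91 and −2.90 in the control and −4.30 and −3.78 in the KO, a difference of −1.14 or 2.21-fold. An exact two-sided permutation test gave p = 0.333 for each ratio, which is the smallest value this test can give for 2 libraries against 2, so it could not pass 0.05 here, and no other test of the ratio was run. With 1 library left out at a time it ranged from −2.10 to −1.70 for β-like and from −1.40 to −0.88 for α-like globins. Over all globins the embryonic share was 18.7% and 20.5% in the control and 8.01% and 8.08% in the KO libraries.

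Other divisions of the globin reads moved less. Within the adult pairs, *Hba-a2* gave 77.9% and 81.4% of adult α reads in the control and 78.2% and 80.4% in the *Dnmt1* KO libraries, and *Hbb-bt* gave 50.3% and 59.0% of adult β reads against 48.1% and 57.9%. Genotypes overlapped for both shares, and replicates of 1 genotype differed by more than the genotype means. The α-like genes gave 60.2% and 61.0% of all globin reads in the control and 57.8% and 55.5% in the KO, with no overlap between the libraries but with overlapping counting intervals.

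DNMT1 methylates cytosine in CpG, so the CpG content of the promoters is given as context; no methylation was measured in these libraries. RefSeq promoters (table of GRCm38.p6, placed on GRCm39 by exact match) were given for 7 of the 9 genes. In the 250 bases before the RefSeq transcription start, *Hbb-bt* held 0 CpG, *Hbb-y* and *Hba-x* 1 each and *Hbb-bs* 2. *Hba-a1*, *Hba-a2* and *Alas2* held 4 each, and the median over 32851 promoters was 6. The GENCODE reference transcripts begin earlier, so part of each window lies past their first base. Before that base lay 241 bases of *Hbb-y* (1 CpG), 216 of *Hbb-bs* (2), 208 of *Alas2* (3) and 177 of *Hbb-bt* (0). *Hba-a2* had 154 such bases (2 CpG), *Hba-a1* 89 (2) and *Hba-x* 50 (0). The windows of *Hbb-bt*, *Hbb-bs*, *Hba-a1* and *Hba-a2* lie inside the annotated spans of these genes. The embryonic *Hbb-y* and the adult *Hbb-bt* are shown up to the first annotated transcript base, with the CACCC box, the CCAAT box, the TATAA box and the GATA forms AGATAA or TGATAA or AGATAG or TGATAG (either strand) in capitals; *Hbb-y* covers chr7:103502424-103502664 and *Hbb-bt* chr7:103463204-103463380 on the minus strand of GRCm39, and the last capitals of *Hbb-bt* run into a CCAAT cut by the end of the stretch.
Hbb-y: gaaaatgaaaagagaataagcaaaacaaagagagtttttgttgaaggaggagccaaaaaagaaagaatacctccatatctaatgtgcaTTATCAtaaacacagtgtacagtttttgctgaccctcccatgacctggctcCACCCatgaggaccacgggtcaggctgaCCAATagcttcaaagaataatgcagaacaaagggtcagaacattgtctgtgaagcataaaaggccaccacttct
Hbb-bt: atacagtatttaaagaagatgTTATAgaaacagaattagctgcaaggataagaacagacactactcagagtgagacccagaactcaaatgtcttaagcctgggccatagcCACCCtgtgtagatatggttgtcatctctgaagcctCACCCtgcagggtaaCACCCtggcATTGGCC
CACCC boxes are bound by KLF1 and GATA forms by GATA1, the main activators of globin genes. CACCC was found in 7 of the 7 promoters (52.0% of all promoters), CCAAT in 5 (33.8% of all, not in *Hba-x* or *Alas2*), TATAA in 6 (22.8% of all, not in *Hbb-y*) and a GATA form in 6 (26.5% of all, not in *Hbb-bt*). These counts describe letters in a window of 250 bases and no binding. For the 7 genes part of that window lies past the start of the reference transcript.

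Outside the named set, many red cell genes were at or near 0. Of 10 erythroid transcription factors, *Gata1* and *Gfi1b* had 0 reads in all 4 libraries, *Klf1*, the activator of adult β-globin, had 5 and 1 reads in the control and 0 and 1 in the *Dnmt1* KO, and *Tal1*, which acts with GATA1, had 10 and 11 against 1 and 2. The 4 that could be tested, *Ldb1*, *Zfpm1*, *E2f2* and *Lmo2*, were not called (median log2 fold change −0.28). With the limit for testing lowered to a mean of 1, *Tal1* was called lower (log2 fold change −2.13, adjusted p = 0.0466). *Ldb1*, a cofactor also used in many neurons, was the most abundant, with 1857 and 1963 against 1866 and 1802 normalized counts.

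Of 31 genes of the red cell membrane and its enzymes, 14 were tested, 4 were called lower and 1 higher, with a median log2 fold change of −0.15. *Slc4a1*, the band 3 anion exchanger of the red cell membrane, had 19.7 and 32.7 normalized counts in the control and 10.9 and 2.19 in the *Dnmt1* KO (log2 fold change −2.10, SE 0.61, adjusted p = 0.0263). *Gypc*, which anchors the membrane skeleton, had 23.3 and 31.6 against 10.9 and 5.46 (log2 fold change −1.69, SE 0.47, adjusted p = 0.0221). Both rest on 2 to 32 reads per library, and both calls were lost without control replicate 1 (adjusted p = 0.0597 and 0.0622), without control replicate 2 (0.205 and 0.168) and without KO replicate 2 (0.122 and 0.0791), where the log2 fold change of *Slc4a1* was −1.16. DESeq2 called neither (adjusted p = 0.111 and 0.12). The other genes called lower, *Epb41* and *Prdx2*, were ones that many cells express. *Epb41*, a membrane skeleton protein also made in neurons, fell by 0.35 on the log2 scale (adjusted p = 0.00091), and *Prdx2*, a peroxide-reducing enzyme, by 0.16 (adjusted p = 0.0265), a call that was lost with any 1 library left out. *Sptb*, the β-spectrin of red cells, rose by 0.56 (adjusted p = 0.0307), a call that was lost without control replicate 1 (adjusted p = 0.273). *Icam4*, *Car1*, *Hemgn* and *Pklr* had 0 reads in all 4 libraries.

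Few other genes of haem and iron handling passed the test. Of 19 tested genes of haem synthesis, transport and breakdown, 1 was called lower and 18 were not called (median log2 fold change −0.18). *Fech*, the last enzyme of the pathway, had 129 and 162 normalized counts against 101 and 102 (log2 fold change −0.51, SE 0.17, adjusted p = 0.0496), and this call was lost without control replicate 2 (adjusted p = 0.347) and without either KO replicate (0.0862 and 0.0782). *Alas1*, the form of the first enzyme used outside red cells, had 321 and 330 against 293 and 278 (log2 fold change −0.19, adjusted p = 0.245). Of 9 tested iron genes, the ferritin chains *Fth1* (log2 fold change −0.37, adjusted p = 0.000564) and *Ftl1* (−0.15, adjusted p = 0.0367) were called lower and 7 were not called. The *Ftl1* call was lost without control replicate 1 and without either KO replicate, and with length and GC trends removed neither gene was called (*Fth1* log2 fold change −0.14, adjusted p = 0.133). The transferrin receptor *Tfrc*, through which red cell precursors take up iron, had 321 and 246 against 283 and 295 (log2 fold change 0.04, adjusted p = 0.876).

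Among 9 further globin genes, 4 had 0 reads in all libraries (*Hbq1a*, *Hbb-bh0*, *Hbb-bh2* and *Hbb-bh3*), 4 had at most 5 reads in any library, and only cytoglobin, *Cygb*, was tested. *Cygb*, a globin expressed outside red cells, moved opposite to the red cell globins, from 81.4 and 91.9 normalized counts in the control to 162 and 168 in the *Dnmt1* KO (log2 fold change 0.92, SE 0.16, adjusted p = 0.00107).

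Regulators of the switch from embryonic to adult globin act in red cell precursors, and many also act in neurons. All 20 on the list were tested, 3 were called higher, 3 lower and 14 were not called (median log2 fold change −0.06). *Sox6*, which represses *Hbb-y* in red cells and is also a transcription factor of interneurons from this region, rose from 2422 and 2618 to 4321 and 4472 normalized counts (log2 fold change 0.80, SE 0.05, adjusted p = 9.79e-08). *Bcl11a*, another repressor of embryonic globin that is also expressed in neurons, rose from 2611 and 2508 to 3283 and 3426 (log2 fold change 0.39, SE 0.05, adjusted p = 9.09e-05). *Nr2c2*, part of a repressor that binds embryonic globin promoters, rose by 0.29 (adjusted p = 0.0155), and the NuRD complex members *Hdac1*, *Mbd3* and *Gatad2a* fell by 0.37, 0.35 and 0.26 on the log2 scale (adjusted p = 0.0157, 0.0106 and 0.035). Each of the last 4 calls was lost with some library left out, *Nr2c2* without control replicate 1, control replicate 2 or KO replicate 2, *Hdac1* and *Mbd3* without control replicate 2 or KO replicate 1, and *Gatad2a* without any 1 of the 4. With length and GC trends removed, *Hdac1*, *Mbd3* and *Gatad2a* were not called (adjusted p = 0.0523, 0.0937 and 0.179), and with DESeq2 only *Mbd3* of the 3 was. These values come from the whole sorted population and not from red cells.

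Of 6 tested genes listed as neighbours of the globin loci, 1 was called lower and 5 were not called, with a median log2 fold change of −0.20. Their distances to the globin clusters were not measured, and a listed gene need not flank a cluster directly. The gene called was *Rrm1*, a subunit of ribonucleotide reductase (log2 fold change −0.38, SE 0.08, adjusted p = 0.00369). *Nprl3*, whose introns hold the α-globin enhancers, had 97.5 and 92.9 normalized counts in the control and 105 and 113 in the *Dnmt1* KO (log2 fold change 0.19, adjusted p = 0.521). *Rhbdf1*, another gene near the α-globin cluster and named here after its values were seen, had 25.1 and 22.5 against 11.8 and 9.83 (log2 fold change −1.07, SE 0.42, adjusted p = 0.098).

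Marker lists of endothelial cells, of mural cells and fibroblasts, and of microglia and leukocytes fell with the globins. Platelet markers did not, and the part of these cells in the globin result was not tested. Of 10 tested endothelial markers, 8 were called lower and 2 were not called (median log2 fold change −1.16), and the 12 markers summed to 626 and 627 normalized counts in the control and 257 and 281 in the *Dnmt1* KO, a ratio of 2.33. Those called were *Kdr*, *Cdh5*, *Pecam1*, *Flt1*, *Cldn5*, *Tie1*, *Tek* and *Esam*, with log2 fold changes from −1.72 to −1.03. *Cdh5*, the cadherin of endothelial junctions, had 121 and 121 against 42.4 and 30.6 (log2 fold change −1.72, SE 0.23, adjusted p = 9.3e-05). *Pecam1*, another endothelial adhesion molecule, had 71.6 and 79.6 against 28.6 and 32.8 (log2 fold change −1.27, SE 0.25, adjusted p = 0.00255). The number called lower was 4 without control replicate 1 and 4 without control replicate 2.

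Of 9 tested mural and fibroblast markers, 6 were called lower and 3 were not called (median −0.98), and the 11 markers summed to 515 and 563 against 293 and 263, a ratio of 1.94; the number called was 3 without control replicate 1 and 2 without control replicate 2. Those called were *Col3a1*, *Rgs5*, *Pdgfrb*, *Abcc9*, *Col1a1* and *Col1a2*, with log2 fold changes from −1.32 to −0.83. *Pdgfrb*, the pericyte receptor, had 76.1 and 89.8 against 31.6 and 37.1 (log2 fold change −1.25, SE 0.24, adjusted p = 0.00235). Of 4 tested microglia and leukocyte markers, *Csf1r* and *C1qc* were called lower and 2 were not called (median −1.32), and the 14 markers summed to 125 and 141 against 41.4 and 55.7, a ratio of 2.74. The neutrophil markers *Mpo* and *S100a8* had 0 reads in all libraries, and both calls were lost without control replicate 1, where *Cx3cr1* was called instead (adjusted p = 0.036), and without control replicate 2, where none was called. Of the platelet markers, *Ppbp* and *Gp9* had 0 reads in all libraries and *Gp1bb* was tested (log2 fold change 0.37, adjusted p = 0.412). The 7 platelet and megakaryocyte markers summed to 65.3 and 62.3 normalized counts in the control and 110 and 62.3 in the *Dnmt1* KO.

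Lists of the brain lineages moved in both directions. Of 8 tested radial glia markers, 6 were called lower, 1 higher and 1 was not called (median −0.82), and they summed to 10148 and 10242 against 6024 and 6226, a ratio of 1.66. The genes called lower were *Vim*, *Nes*, *Fabp7*, *Pax6*, *Slc1a3* and *Hes5*, with log2 fold changes from −1.03 to −0.66. *Vim*, an intermediate filament gene of progenitors that other cells also express, had 3827 and 3964 against 1861 and 1956 (log2 fold change −1.03, adjusted p = 1.34e-08), and *Sox2*, which keeps progenitors undifferentiated, rose by 0.40 (adjusted p = 0.00048). Of 12 interneuron markers, 10 were called higher and 2 were not called (median 0.51), and they summed to 20205 and 20335 against 30290 and 30333. Those called were *Sst*, *Lhx6*, *Erbb4*, *Dlx1*, *Dlx2*, *Dlx5*, *Gad1*, *Gad2*, *Slc32a1* and *Npy*, with log2 fold changes from 0.34 to 1.08. The summed embryonic globins, at a ratio of 10.4, and the summed adult globins, at 3.73, thus had larger ratios of control to *Dnmt1* KO than any of these marker sums; differences between the ratios were not tested.

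**Figure D4:**
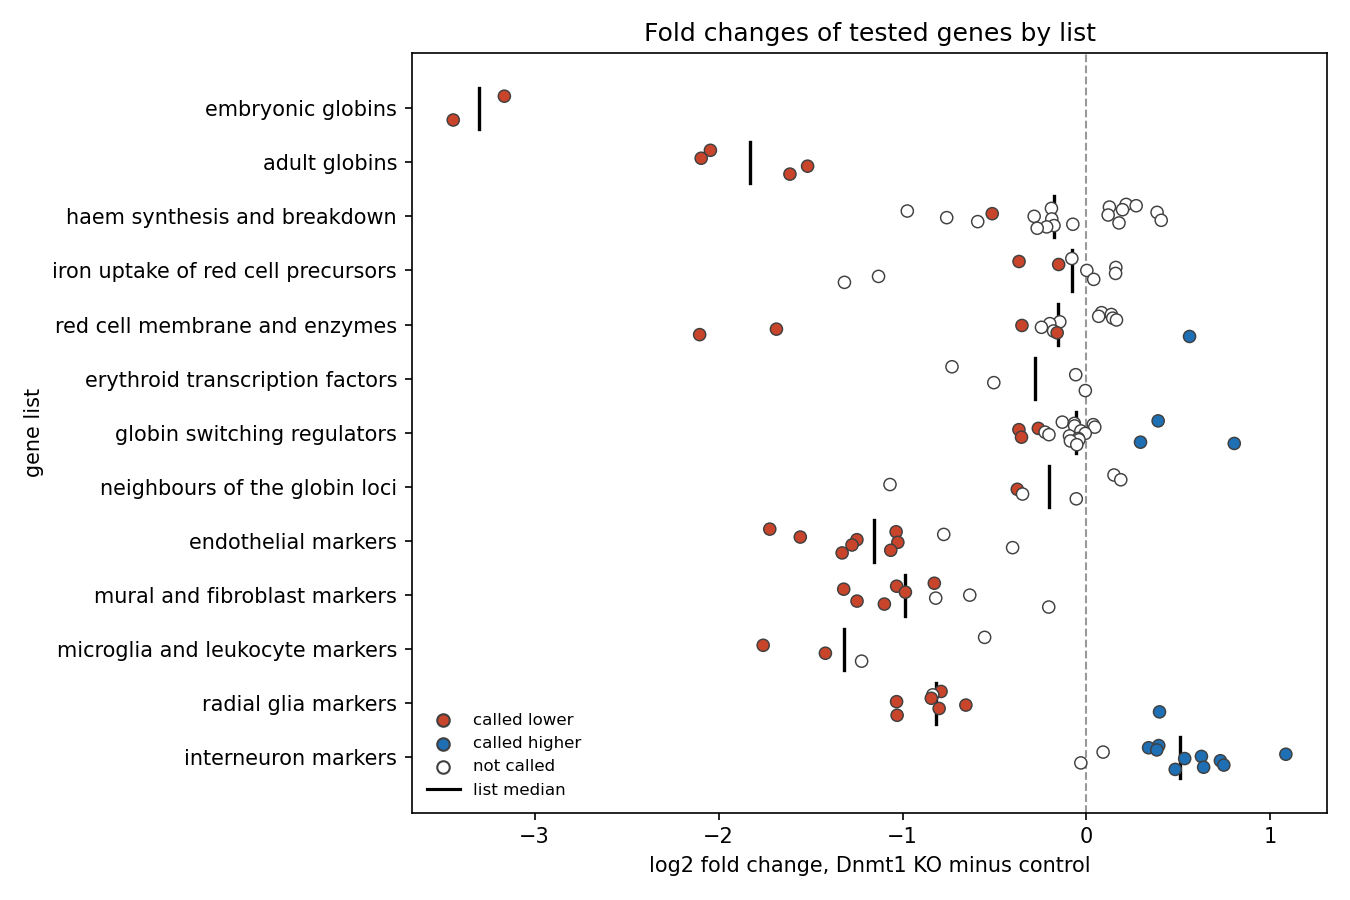
Log2 fold change (*Dnmt1* KO minus control) of each tested gene by list; red points were called lower, blue points called higher and white points not called, and black lines are list medians. The embryonic globins (median −3.30) and adult globins (median −1.83) lie left of the endothelial (−1.16), mural (−0.98), microglial (−1.32) and radial glia (−0.82) medians, and the interneuron median is 0.51.

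The genes whose pattern over the 4 libraries lay nearest to the summed globin and erythroid genes, by Euclidean distance of centred log2 values, were *Fzd6* (distance 0.112), *H2bc23* (0.161), *H2ac7* (0.246), *Gm6061* (0.256) and *H3c14* (0.262). *Fzd6*, a Wnt receptor, had 28.6 and 25.5 normalized counts in the control and 4.93 and 5.46 in the *Dnmt1* KO (log2 fold change −2.18, SE 0.48, adjusted p = 0.00523), a call that was lost without control replicate 1 (adjusted p = 0.0539). *H2bc23*, *H2ac7* and *H3c14* are histone genes, and *H3c14* had 414 and 383 against 73.0 and 86.3 (log2 fold change −2.31, SE 0.14, adjusted p = 5.23e-08). *Gm6061*, annotated as a transcribed processed pseudogene whose reads may come from its parent gene, had 49.2 and 43.9 against 7.89 and 9.83. With 4 libraries in 2 genotypes, nearness mainly reflects a like fold change.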

How the data were processed

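Per the labels, RNA was isolated from 50000 sorted cells pooled per genotype. The authors deposited normalized counts, a signal per gene and library; the submitters' processing notes name Salmon 1.10.1 for counting, STAR 2.7.9a, Trim Galore 0.6.7, DESeq2 1.32.0 and the build GRCm39. All 89965 values above 0 were whole reads (within 0.0001 of a read) divided by 1 size factor per library; fractional Salmon estimates had thus been rounded, and the division of reads between near-identical globins is an estimate. Whether counting used strand is not given in the sources used here.

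The test was limma 3.58.1 on log2 values with a pseudocount of 1, for genes whose normalized counts averaged 10 or more (R 4.3.3, trended prior variance, genotype only, two-sided, Benjamini-Hochberg over 14323 genes, called below 0.05). The pseudocount makes fold changes of low genes too small. Count tests on the recovered reads used edgeR 4.0.16 and DESeq2 1.42.0. On simulated data (14323 genes, 50 per fold change) limma called 84% of genes with a log2 fold change of −2, 84% with −1 and 48% with −0.5. The simulation gave all genes the same dispersion (spread beyond counting error). These rates therefore need not hold for the real libraries. Shares have 95% Wilson intervals. Lengths, positions and transcripts came from GENCODE on GRCm39. Python 3.11.15, numpy 2.4.6, scipy 1.17.1, pandas 2.3.3 and matplotlib 3.10.9 did the rest.

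The genes named are the 9 listed, *Dnmt1*, in each further list the called genes and at most 4 others by level, and the 5 nearest in pattern; zero-count genes, *Klf1*, *Tal1*, *Rhbdf1* and the 4 genes ranked ahead of *Hbb-y* were named after their values were seen. The genes and lists were chosen with earlier results of these data known. Alternatives were other pseudocounts, filters, scalings, tests, summed paralogs, a length and GC correction, a replicate block and each library left out.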

Additional observations from a re-analysis of the deposited data

How the results depend on the processing

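The 7 tested globin and erythroid genes kept their direction in every alternative that gave them a value and stayed below an adjusted p of 0.05 in all but 1, with a largest adjusted p of 0.0152 (*Alas2*) among these. The exception was limma without the variance trend, which called 0 of the 7, 0 of the genes in the other lists and 0 of all 14323 genes, since its smallest adjusted p was 0.0592; 3339 genes were at an unadjusted p below 0.05 there, and edgeR called 2528 and DESeq2 1317 genes. A mean count of at least 50 left *Alas2* untested. Of all genes, limma called 2476, and 1525 to 2205 with 1 library left out (1648 without control replicate 1 and 1525 without control replicate 2). Calls in the other lists numbered 49, against 32 with DESeq2 and 32 to 43 with 1 library left out, the lowest without control replicate 2. With gene length and GC trends removed, the log2 fold changes of *Dnmt1* (0.016) and *Ftl1* (0.068) turned positive; neither was then called, and the cause was not tested. Another scaling moved the median of all genes by at most 0.062 on the log2 scale. DESeq2 called 4 endothelial, 3 mural and fibroblast, 0 microglia and leukocyte, 1 red cell membrane, 1 globin switching, 1 iron and 0 haem genes lower.

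The labels share replicate numbers but do not say that these pair libraries, and same-numbered libraries did not deviate together (r = −0.085 across 14323 genes, which are not independent). With the replicate number as a block, 2957 genes, 7 of the 7 globin and erythroid genes and 51 list genes were called, *E2f2* now among those lower (adjusted p = 0.0483). Each group has 2 libraries, and *Hbb-bh1*, *Slc4a1*, *Gypc* and the erythroid transcription factors are limited by reads.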
